A study of Mus musculus with 19 samples.

Results

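Of the 3516 genomic regions that a Nup153 fusion marked in mouse embryonic stem cells (ESC), 392 lay at a promoter that also carried a peak of Ring1B, and they are described here. Nup153 is a nucleoporin of the basket on the nuclear side of the pore, and Ring1B (gene Rnf2) is the ubiquitin ligase of Polycomb repressive complex 1 (PRC1). The sites were chosen by the positions in the Nup153 and control Ring1B lists: a site is a Nup153 region that reaches to 2 kb or less from the start (TSS) of a gene and shares at least 1 bp with a Ring1B peak of control ESC. In all, 1231 Nup153 regions lay within 2 kb of a TSS, 839 of them without Ring1B, and 1406 Nup153 regions anywhere shared bases with Ring1B. The presence of both proteins at them is therefore not a result.

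Nup153 was mapped by DamID, in which a protein fused to a bacterial adenine methylase marks GATC sequences near the places it visits, in E14 ESC without a hairpin. There were 2 replicates each of Dam fused to Nup153, to Oct4 as a positive control and to GFP as a negative control, with each fusion behind a heat shock promoter and delivered by virus. For the knockdown, E14 ESC on irradiated mouse embryonic fibroblasts received lentiviral hairpin #2 or hairpin #4 against Nup153, and control ESC received a non-target hairpin, in each case with puromycin selection for at least 4 days. Ring1B was mapped by chromatin immunoprecipitation (ChIP) in hairpin #2, hairpin #4, neural progenitors (NeuP) and control ESC, Oct4 in hairpin #2 and control ESC, and Cbx7 in control ESC, with 1 library each. NeuP carried no hairpin and were grown from embryoid bodies with 0.5 µg/ml Noggin, then 20 ng/ml FGF2 and 20 ng/ml EGF, and the labels name no line for them. Polyadenylated RNA was sequenced from hairpin #2 and hairpin #4 (1 library each), NeuP (2 libraries) and control ESC (1 library).

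PRC1 sits mostly at unmethylated CpG-rich promoters, where it adds ubiquitin to histone H2A and compacts chromatin. In its canonical form a Cbx protein, in ESC mainly Cbx7, reads the histone H3 mark placed by PRC2, and these promoters belong largely to silent developmental genes. Variant PRC1 lacks Cbx proteins and is also found at promoters of active genes. Nup153, beside its part in nuclear transport, binds chromatin in several species.

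DamID reads GATC, so the letters of a promoter bear on what it can report. The 6 promoters below belong to genes that later values turn on, and in each the Nup153 site covered the whole window in the study's mm9 build. Each runs from 250 bases before to 50 bases after the start site, 5′ to 3′ on the gene's own strand, from RefSeq on build GRCm38.p6, with GATC in capitals. Nodal and Wls had more RNA in both hairpins than in control ESC, Ifi30 and Calr had less, Fabp3 had the lowest NeuP value relative to control ESC, and Apoe lay at a site absent from the Ring1B list of either hairpin.
Nodal (chr10:61417722-61418021, + strand): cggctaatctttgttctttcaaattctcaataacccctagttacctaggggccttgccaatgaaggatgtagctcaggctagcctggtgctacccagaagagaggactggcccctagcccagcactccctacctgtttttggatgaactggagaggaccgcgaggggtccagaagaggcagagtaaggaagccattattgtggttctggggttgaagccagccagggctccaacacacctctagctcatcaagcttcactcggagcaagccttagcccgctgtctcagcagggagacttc
Wls (chr3:159839400-159839699, + strand): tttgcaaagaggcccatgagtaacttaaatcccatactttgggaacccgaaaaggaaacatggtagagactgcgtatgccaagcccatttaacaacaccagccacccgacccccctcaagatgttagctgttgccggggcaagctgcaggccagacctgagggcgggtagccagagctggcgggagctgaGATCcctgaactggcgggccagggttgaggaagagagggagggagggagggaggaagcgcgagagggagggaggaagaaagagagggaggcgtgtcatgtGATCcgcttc
Ifi30 (chr8:70766614-70766913, - strand): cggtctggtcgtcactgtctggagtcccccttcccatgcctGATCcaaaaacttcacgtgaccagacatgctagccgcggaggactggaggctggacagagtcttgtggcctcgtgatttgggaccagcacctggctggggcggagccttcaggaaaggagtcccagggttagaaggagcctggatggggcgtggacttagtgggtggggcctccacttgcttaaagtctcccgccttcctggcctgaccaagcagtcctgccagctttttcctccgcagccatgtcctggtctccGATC
Calr (chr8:84846882-84847181, - strand): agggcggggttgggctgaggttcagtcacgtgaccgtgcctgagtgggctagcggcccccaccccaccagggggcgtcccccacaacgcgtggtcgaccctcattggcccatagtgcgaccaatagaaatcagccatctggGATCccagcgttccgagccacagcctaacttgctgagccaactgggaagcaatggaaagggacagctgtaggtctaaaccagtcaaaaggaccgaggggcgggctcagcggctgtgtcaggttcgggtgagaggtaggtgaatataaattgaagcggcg
Fabp3 (chr4:130308488-130308787, + strand): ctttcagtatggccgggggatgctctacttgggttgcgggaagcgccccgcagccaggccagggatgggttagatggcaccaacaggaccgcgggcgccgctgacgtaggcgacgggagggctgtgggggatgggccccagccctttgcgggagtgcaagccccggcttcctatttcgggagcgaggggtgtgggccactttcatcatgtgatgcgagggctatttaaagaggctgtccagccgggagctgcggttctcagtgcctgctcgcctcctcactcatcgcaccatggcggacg
Apoe (chr7:19699139-19699438, - strand, first of 3 listed starts): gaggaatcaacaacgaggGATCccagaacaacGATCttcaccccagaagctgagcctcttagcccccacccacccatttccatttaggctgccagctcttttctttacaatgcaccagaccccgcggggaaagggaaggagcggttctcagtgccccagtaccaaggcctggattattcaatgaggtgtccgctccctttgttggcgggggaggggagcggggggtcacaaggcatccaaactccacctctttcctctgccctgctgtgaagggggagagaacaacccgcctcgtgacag

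Nodal and Fabp3 held no GATC in these windows, Calr held 1, and Wls, Ifi30 and Apoe held 2 each. Across the 27025 promoters of the reference table, 1 per gene, 48.0% held at least 1 GATC, a motif that reads the same on both strands. The 6 windows held between 5 CG dinucleotides (Nodal) and 22 (Fabp3), against a median of 7 over the table. Of the 455 genes at the sites, 310 had a promoter in the table, under 80%, so a comparison of letters between the site genes and other genes would be void and is not made.

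Some sites lay over microRNA genes, which regulate target RNAs through the bases of their seed. Among the site genes 25 were microRNA genes, and 23 of them had a mature sequence in the reference table. A single site (mm9 chr6:30115534-30118034) covered Mir182 and reached to 1517 bp from the start of Mir96 and 1703 bp from that of Mir183, a cluster known for its role in hair cells and photoreceptors. Its mature 5p products are shown because they share most of their seed, bases 2 to 8, in capitals.
mmu-miR-183-5p: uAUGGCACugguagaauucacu
mmu-miR-96-5p: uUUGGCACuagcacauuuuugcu
mmu-miR-182-5p: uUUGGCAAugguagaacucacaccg

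That site was in the Ring1B list of hairpin #2 and not in those of hairpin #4 or NeuP, nor in the Cbx7 list. A site on chromosome 14 (mm9 chr14:65206524-65214500) covered Mir124a-1, a gene of a neuronal microRNA, and was in both hairpin lists and the Cbx7 list. RNA libraries of polyadenylated RNA give no level of a mature microRNA, so none is reported.

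The sites were broad relative to their Ring1B peaks. Their width ran from 2501 to 8181 bp, and 202 of 392 (51.5%) were at the least width, against 69.7% of the promoter sites without Ring1B. Of the 392 sites, 271 (69.1%) covered a TSS, against 80.3% of the promoter sites without Ring1B. The Ring1B peaks were narrower, with a median of 628 bp, and 353 sites (90.1%) held the whole Ring1B peak. The bases shared ran from 25 to 2501 with a median of 501. The centre of the site lay a median of 991.5 bp from the nearest TSS and that of the Ring1B peak 1153.5 bp. The centres lay on both sides of the TSS, with 210 site centres and 191 Ring1B centres downstream of it.

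**Figure D1:**
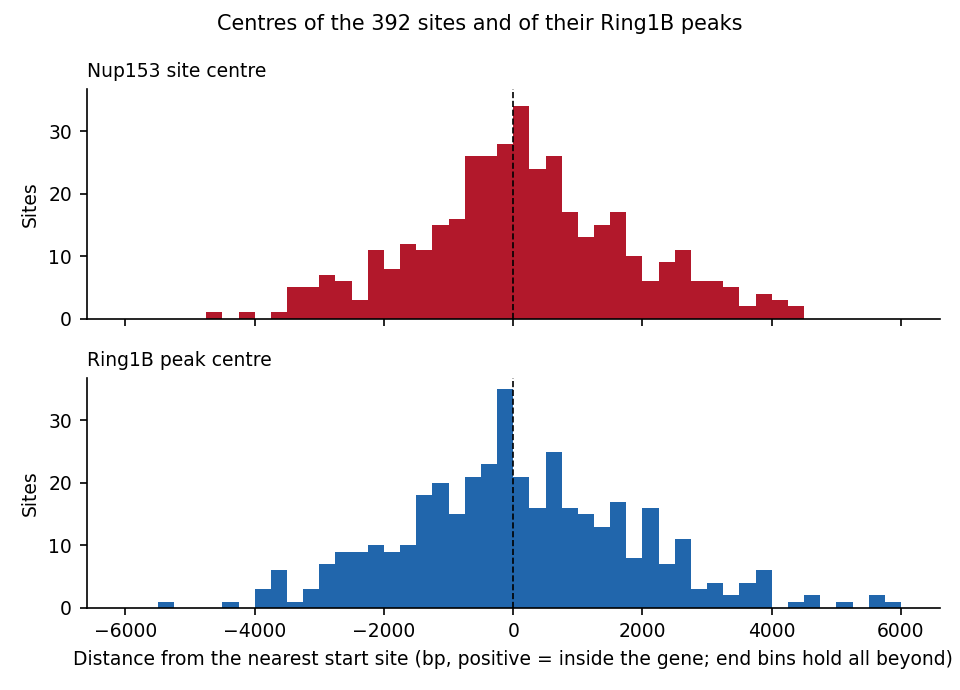
Histograms of the distance (bp) from the nearest TSS to the centre of each of the 392 Nup153 sites (top) and of its Ring1B peak (bottom), in bins along the gene's direction, with the TSS as a dashed line. Both spread to either side of the TSS, with 112 site centres and 96 Ring1B centres within 500 bp of it.

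A single TSS lay within reach of 334 sites, 54 sites had 2 and 4 had more, and 43 sites had starts on both strands. The sites reached 455 genes, each from a single site, of which 392 were protein-coding and 61 noncoding. At the limit of the rule, Mir6540 (1990 bp), Fgf4 (1977 bp), Inha (1967 bp), Hbegf (1952 bp) and Parp1 (1911 bp) were just inside. Regions nearest to 5830418P13Rik (2011 bp), Irf2bpl (2011 bp), another region near 4930461G14Rik (2013 bp), Palm3 (2034 bp) and Lefty2 (2053 bp) were just outside. The smallest overlaps inside were 25 bp at Dusp10, 38 bp at Dmtn and 41 bp at Kank3, and the nearest misses were gaps of 6 bp at Aebp2 and 22 bp at Mir22hg.

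Ring1B peaks of the other ChIP libraries touched many of the sites, but not all of them. A peak anywhere in the Nup153 region was counted, whether or not it touched the Ring1B peak of control ESC. Of the 392 sites, 238 (60.7%, 95% Wilson interval 55.8 to 65.4%) were in the Ring1B list of hairpin #2 and 197 (50.3%, 45.3 to 55.2%) in that of hairpin #4. In NeuP 95 sites (24.2%, 20.3 to 28.7%) were listed. Wilson intervals here cover counting error only. Among promoter sites without Ring1B in control ESC the shares were 35.4% in hairpin #2, 10.7% in hairpin #4 and 17.2% in NeuP. These 2 groups were split by Ring1B in control ESC, so the higher shares of the sites in other Ring1B lists are not a result. The sites were also less often at the least width (51.5% against 69.7%), and the part of width was not tested. The 1014 Nup153 regions with Ring1B away from a TSS were listed at 60.2% in hairpin #2, where the interval overlaps that of the sites. They were listed at 62.4% in hairpin #4 and 11.8% in NeuP, where the intervals do not overlap those of the sites.

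The lists differ in depth, and a list says only whether a peak passed its caller. The libraries held 30.8 M tags for hairpin #2, 9.95 M for hairpin #4, 33.2 M for NeuP and 4.99 M for control ESC, so the deepest ESC library gave the larger share. The lists held 15604, 12117, 14556 and 11916 peaks in the same order. With 1 library per list and no peak height in the files, a change in Ring1B binding at the sites could not be tested, and the part of depth in these shares was not tested.

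**Figure D2:**
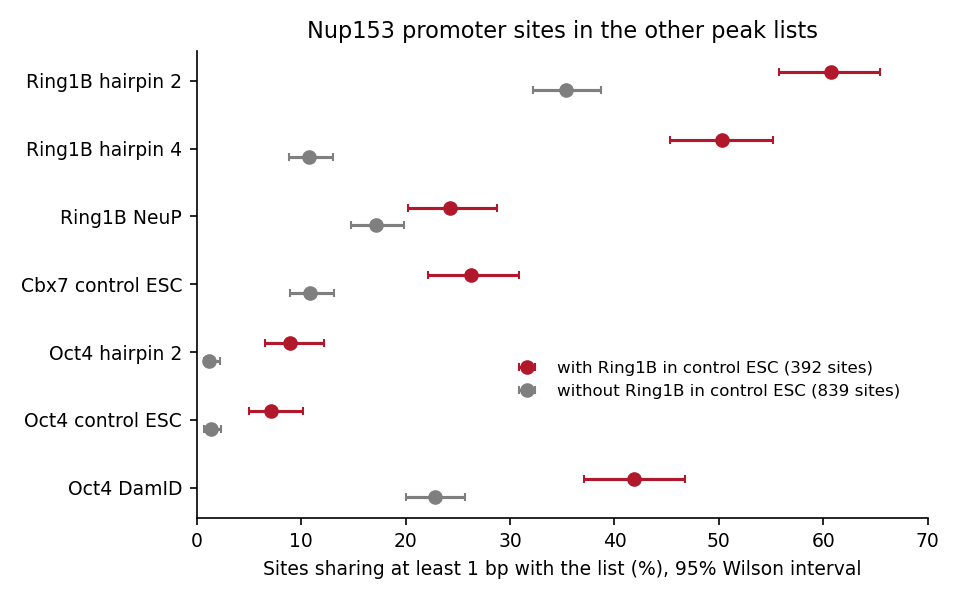
Share of sites (%) that share at least 1 bp with each of 7 other peak lists, with 95% Wilson intervals, for Nup153 promoter sites with Ring1B in control ESC (red, above) and without it (grey). The sites with Ring1B have the higher share in each list, with the highest at 60.7% in the Ring1B list of hairpin #2. For the Ring1B lists this is not a result, since the groups were split by Ring1B. For Cbx7, a subunit of the same complex, the difference cannot be told apart from that split.

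By hairpin, 154 sites (39.3%) were in both Ring1B lists, 84 (21.4%) in that of hairpin #2 alone, 43 (11.0%) in that of hairpin #4 alone and 111 (28.3%) in neither. The 154 sites in both lists had wider Ring1B peaks in control ESC, with a median of 805.5 bp, against 501 bp at the 111 sites in neither. The classes were made from these lists, so their Ring1B shares are a description.

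Counted by Ring1B promoter peak, those touching the members had a lower share than other Ring1B promoter peaks in the list of hairpin #2. In those of hairpin #4 and NeuP the intervals overlap. Only Ring1B peaks that themselves lay within 2 kb of a TSS were counted, so the peaks of some sites may be left out. Among these peaks of control ESC, 350 touched a member site and 1561 touched no Nup153 region, both with a median width of 501 bp. Of those touching a site, 51.4% (46.2 to 56.6%) were in the list of hairpin #2, against 65.3% (62.9 to 67.6%) of those with no Nup153 region. In the list of hairpin #4 the shares were 40.9% (35.8 to 46.1%) at the sites and 45.1% (42.6 to 47.6%) at the others, with intervals that overlap. In NeuP they were 19.7% (15.9 to 24.2%) and 17.4% (15.6 to 19.3%), which overlap too.

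Cbx7, the reader subunit of canonical PRC1, was listed at 103 of the 392 sites (26.3%, 22.2 to 30.8%), against 10.8% of the promoter sites without Ring1B. These 2 groups were split by Ring1B in the same cells, so that difference cannot be told apart from the split. The Cbx7 share was lower at the sites than at other Ring1B promoters. It was 24.0% (19.8 to 28.7%) of the Ring1B promoter peaks touching a site, against 47.9% (45.4 to 50.3%) of those touching no Nup153 region. Of the 103 sites with Cbx7, 94 (91.3%) were in the Ring1B list of hairpin #2 and 79 (76.7%) in that of hairpin #4. Of the 289 sites without Cbx7, 144 (49.8%) and 118 (40.8%) were. Cbx7 was listed at 74 of the 154 sites in both hairpin lists and at 4 of the 111 sites in neither. Ring1B peaks at sites with Cbx7 were wider in control ESC, with a median of 754 bp against 501 bp without Cbx7.

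Oct4 (gene Pou5f1), a core transcription factor of pluripotency, was listed by ChIP at few sites. Its ChIP peaks touched 35 sites (8.93%, 6.49 to 12.2%) in hairpin #2 and 28 (7.14%, 4.99 to 10.1%) in control ESC, 22 of them in both. Among promoter sites without Ring1B the shares were 1.19% in hairpin #2 and 1.31% in control ESC. Over all 3516 Nup153 regions they were 6.37% and 6.23%, and among Nup153 regions with Ring1B away from a TSS they were 17.0% and 16.9%, above the intervals of the sites. Of the 28 sites with Oct4 in control ESC, 24 were in the Ring1B list of hairpin #2 and 26 in that of hairpin #4. The Oct4 DamID list touched 164 sites (41.8%, 37.1 to 46.8%), against 22.8% of promoter sites without Ring1B, 68.1% of Nup153 regions with Ring1B away from a TSS and 41.4% of all Nup153 regions, so the share at the sites was near that of all Nup153 regions. Counted by Ring1B promoter peaks, it touched 37.7% of those at a site and 4.48% of those touching no Nup153 region. Both DamID lists share the method and the GFP control, so what they have in common at the sites cannot be told apart from what the method favours. No list other than the 2 that define the sites held 56 of the sites.

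The RNA libraries were of even depth, between 24.3 and 32.2 M fragments, and RNA levels are FPKM, fragments scaled to transcript length and library depth. Nup153 itself had 20.9 and 17.4 FPKM in hairpins #2 and #4 and 12.8 and 29.1 FPKM in NeuP, against 39.4 FPKM in control ESC. Summed over 9 ESC markers the level was 118 and 91.6 FPKM in NeuP, against 1627 FPKM in control ESC, and over 8 neural progenitor markers it was 3753 and 4093 FPKM against 114 FPKM. The sum of 8 fibroblast markers was 13.2 and 12.5 FPKM in the hairpins, 52.9 and 95.2 FPKM in NeuP and 8.66 FPKM in control ESC, and its part in the results was not tested. The sum of 6 endoderm markers was 20.8 and 26.3 FPKM in the hairpins, 0.11 and 0.327 FPKM in NeuP and 13.7 FPKM in control ESC, and that of 5 trophoblast markers 31.5 and 25.1 FPKM, 0.318 and 0.317 FPKM, and 28.2 FPKM, none of which was tested either. No fibroblast, endoderm or trophoblast marker was a site gene. In bulk RNA, fewer cells of a type and less RNA per cell cannot be told apart.

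Most site genes were active in ESC. Their median was 8.91 FPKM in control ESC, against 0.83 FPKM over the 24016 genes of the table, and 337 of 455 (74.1%) had at least 1 FPKM there, against 48.7% of the table. Genes of Nup153 promoter sites without Ring1B had a median of 8.27 FPKM and 80.9% at 1 FPKM or more, whereas genes of Ring1B promoters without Nup153 had a median of 1.61 FPKM and 54.2%. At least 1 FPKM in control ESC was reached by 81.5% of the genes at sites without Cbx7 and 53.3% of those with it. The 335 genes at sites without Cbx7 had a median of 12.8 FPKM in control ESC, and the 120 genes at sites with Cbx7 had 1.39 FPKM. By hairpin class the median was 6.76 FPKM for genes of sites in both Ring1B lists and 12.1 FPKM for genes of sites in neither.

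**Figure D3:**
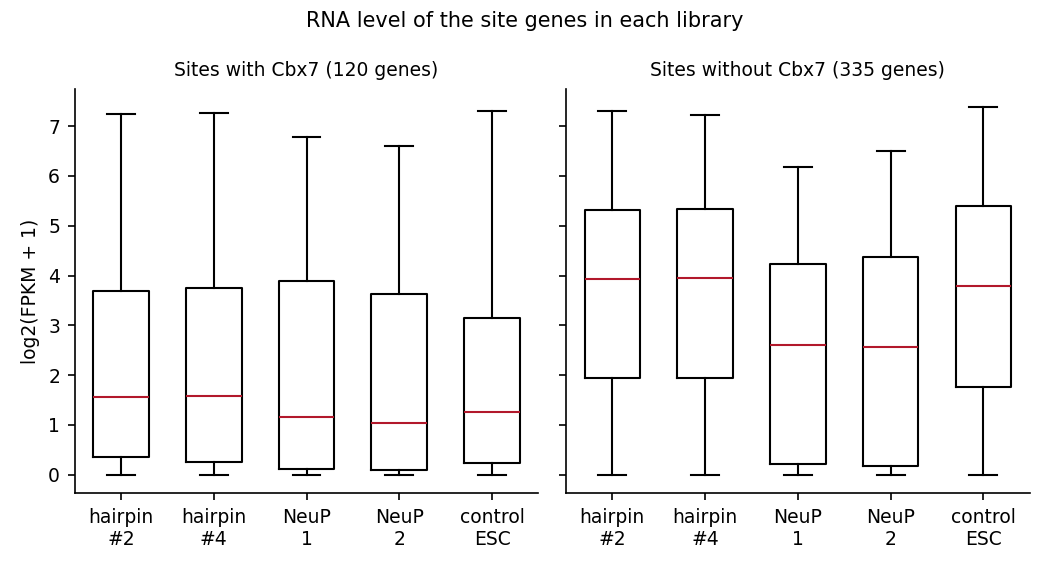
RNA level of site genes, as log2(FPKM + 1), in each of the 5 libraries for sites with Cbx7 (left, 120 genes) and without (right, 335 genes), where a box spans the quartiles, the red line is the median and whiskers reach the 5th and 95th percentiles. Genes of sites without Cbx7 have the higher median in every library, and their medians are lower in NeuP than in ESC.

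The knockdown asks whether genes at the sites have a different RNA level when Nup153 is reduced. No site gene was called. With limma on log2(FPKM + 1), fitted over 13750 genes with at least 1 FPKM in some library, 0 of the 381 site genes tested had a Benjamini-Hochberg adjusted p under 0.05. None of the 13750 did (0%). At an unadjusted p under 0.05, 18 site genes (4.72%) were higher and 8 (2.1%) lower, against 4.49% and 1.43% of all genes tested. With voom on reads recovered from the FPKM the count was also 0. Whether the libraries are separate cultures is not stated, so a p-value reflects only how these samples spread, and the lone control was taken to vary as the hairpins and NeuP do.

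The median difference from control ESC over the 381 site genes was 0.11 on the log2 scale, against 0.08 over all genes tested. Genes of Ring1B promoters without Nup153 also had a median of 0.11, and genes of Nup153 promoter sites without Ring1B had 0.10. The small excess was thus not particular to the sites. At genes of sites with Cbx7 the median was 0.21, at those without Cbx7 0.07. For genes of sites in both Ring1B lists it was 0.16, and for those of sites in neither it was 0.02. Log2 differences of FPKM + 1 understate the change of low genes. On FPKM + 1, 22 site genes (5.77%) exceeded control ESC by 1.5-fold or more in both hairpins, against 4.47% of all genes tested. Among these 22 are 5 gamma protocadherin genes that share their last exons, with nearly equal values that cannot be told apart as separate genes. The count was not repeated without them. By the same measure 11 site genes (2.89%) stood 1.5-fold or more below control ESC in both hairpins, against 1.24%. On FPKM with nothing added the counts were 49 (12.9%, against 13% of all genes tested) and 14 (3.67%, against 2.44%). Of the 22 counted on FPKM + 1, 12 lay at sites in both Ring1B lists and 2 at sites in neither. The 12 include the protocadherins Pcdhga11, Pcdhgb6 and Pcdhgb7. Of the 11, 4 lay at sites in both and 5 at sites in neither. The sites in both lists had 143 tested genes and those in neither had 103. None of these counts carries a test.

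The site genes with the largest difference shared by both hairpins were led by L1td1 and Nodal. L1td1, an RNA-binding protein of pluripotent cells derived from a transposon, had 33.9 and 43.6 FPKM in hairpins #2 and #4, against 14.9 FPKM in control ESC. Nodal, the TGF-beta family ligand that patterns the early embryo, had 20.0 and 19.6 FPKM against 9.07 FPKM. Its site (mm9 chr10:60876719-60881332) was in both hairpin Ring1B lists, both Oct4 ChIP lists and the Oct4 DamID list, but not in the Cbx7 list. Both hairpin libraries lay above the control for each gene.

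Tdh, threonine dehydrogenase, on which mouse ESC depend for metabolism, had 36.4 and 31.4 FPKM in the hairpins and 16.5 FPKM in control ESC. Wls, which carries Wnt ligands to the cell surface, had 5.38 and 4.29 FPKM against 1.99 FPKM, at a site with Cbx7. Fblim1, a filamin-binding protein of cell adhesions, had 29.5 and 32.2 FPKM against 15.2 FPKM. On FPKM + 1, L1td1, Nodal and Krcc1 were the 3 site genes (0.787%) at 2-fold or more above control ESC in both hairpins, against 0.305% of all genes tested. On FPKM with nothing added there were 17 (4.46%), Wls among them, against 4.68% of all genes tested, so that on that scale the share was near the background. The other genes of the leading 10 were 4930461G14Rik, Gm53, Lpar6 (a receptor for lysophosphatidic acid) and Slc43a1 (an amino acid transporter), with smaller-hairpin differences between 0.81 and 0.99 log2.

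The site genes lower in both hairpins included abundant ones. Calr, encoding the chaperone calreticulin of the endoplasmic reticulum, had 567 and 563 FPKM in the hairpins, against 1033 FPKM in control ESC. Ifi30, a lysosomal thiol reductase, had 132 and 130 FPKM against 260.4 FPKM. Anxa2, a calcium-dependent membrane-binding annexin, had 88.8 and 78.6 FPKM against 157 FPKM. The sites of these 3 genes were in the Ring1B list of neither hairpin and had no Cbx7. All 3 were in the Oct4 DamID list.

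Txnip, an inhibitor of thioredoxin and glucose uptake, had 599 and 636 FPKM in the hairpins and 1053 FPKM in control ESC. Cyba, a subunit of the NADPH oxidase, had 39.9 and 38.3 FPKM against 60.9 FPKM. Neat1, the noncoding RNA that scaffolds paraspeckles, had 14.9 and 10.6 FPKM against 26.6 FPKM. Rpl36, Msln, Ackr3 and 2210011C24Rik made up the leading 10, with smaller-hairpin differences between -0.77 and -0.64 log2. Of these 10, Ifi30, Calr, 2210011C24Rik and Cyba lie on chromosome 8, which held 28 of the 392 sites (7.14%). The counts by fold were not repeated without that chromosome, and its part was not tested. On FPKM + 1 no site gene was 2-fold or more below control ESC in both hairpins, against 0.16% of all genes tested. On FPKM with nothing added 1 (0.262%) was, against 0.669%, and it was Msln, a cell surface protein of mesothelium, at 1.42 and 1.10 FPKM in the hairpins against 3.05 FPKM in control ESC.

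**Figure D4:**
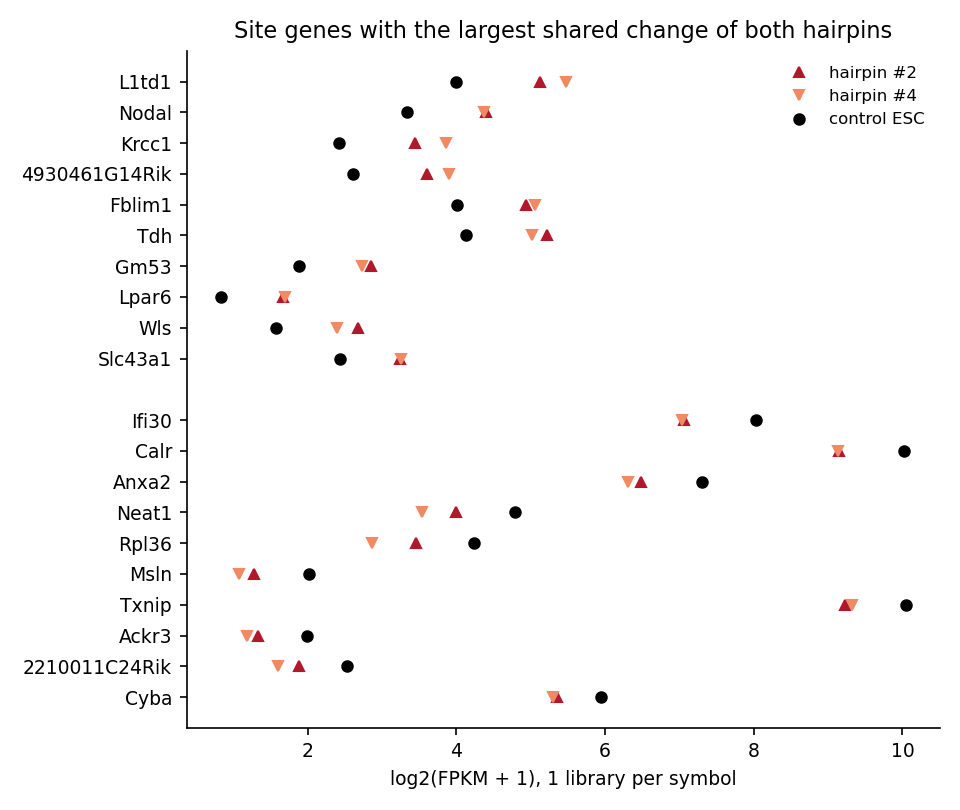
RNA level, as log2(FPKM + 1), of the 10 site genes with the largest and the 10 with the lowest difference shared by both hairpins, with 1 point per library (triangles for hairpins #2 and #4, circle for control ESC). Both hairpin libraries lie on the same side of the single control for each gene, which is how the genes were picked.

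Some of the most abundant site genes lay at sites absent from both hairpin Ring1B lists. Beside Ifi30, Calr and Anxa2 these were Apoe, Fos, Capns1, Slc25a3, Pttg1, Paics and Ccnf. Apoe, a lipid carrier, had 739 and 447 FPKM in hairpins #2 and #4, against 741 FPKM in control ESC. Fos, an immediate early transcription factor, had 29.1 and 33.1 FPKM against 45.9 FPKM. Ccnf, cyclin F, had 140 and 147 FPKM against 97.2 FPKM. Slc25a3, the mitochondrial phosphate carrier, had 244 and 219 FPKM against 221 FPKM. These differences ran both ways and none passed the test.

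The comparison of NeuP with control ESC asks how site genes stand after differentiation, and it shares its control library with the knockdown. NeuP differ from control ESC in cell state, medium and hairpin at once, and these cannot be told apart. Most called site genes fell. With limma and Benjamini-Hochberg adjustment at p under 0.05, 168 of 381 site genes (44.1%) fell and 54 (14.2%) rose in NeuP relative to control ESC, against 24.9% and 18.3% of all genes tested. The median was -0.88 log2, against -0.26 over all genes tested. Promoter genes of Nup153 without Ring1B had a median of -0.59, with 33.2% lower and 14.0% higher. Promoter genes of Ring1B without Nup153 had a median of -0.29, with 30.0% lower and 23.2% higher. In control ESC the median level was 8.91 FPKM for site genes, 8.27 and 1.61 FPKM for these 2 sets and 0.83 FPKM over the table. The part of that level in how far genes fell was not tested. The counts depend on the libraries used: leaving out hairpin #2 gave 11 higher and 86 lower site genes, and so did leaving out hairpin #4. Leaving out the first NeuP library gave 90 higher and 233 lower, and leaving out the other gave 102 higher and 234 lower. With control and NeuP libraries alone they were 5 and 86.

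The counts differed with Cbx7 at the site. Of the 92 tested genes at sites with Cbx7, 32 (34.8%) rose and 37 (40.2%) fell. Of the 289 at sites without Cbx7, 22 (7.61%) rose and 131 (45.3%) fell. Control ESC reached 1 FPKM for 64 of the 120 genes with Cbx7 and 273 of the 335 without, tested or not. A gene that passed the filter through NeuP alone was low in control ESC, so a rise was favoured in advance. Among risers named below, this holds for Tril, En2, Tshz1, Nrp1, Osr2 and Tfap2a. The part of the filter in these shares was not tested. The risers with Cbx7 include 5 gamma protocadherins, and 27 rose without them. They differed with Ring1B in NeuP too: of 92 tested genes at sites in the NeuP Ring1B list, 23 (25%) rose and 21 (22.8%) fell, whereas of 289 at sites outside it 31 (10.7%) rose and 147 (50.9%) fell. Genes of sites in the NeuP list had medians of 9.60 and 9.21 FPKM in NeuP and 9.24 FPKM in control ESC. Genes of sites outside it had 2.2 and 2.37 FPKM in NeuP and 8.62 FPKM in control ESC. These shares are given with no test of their difference.

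**Figure D5:**
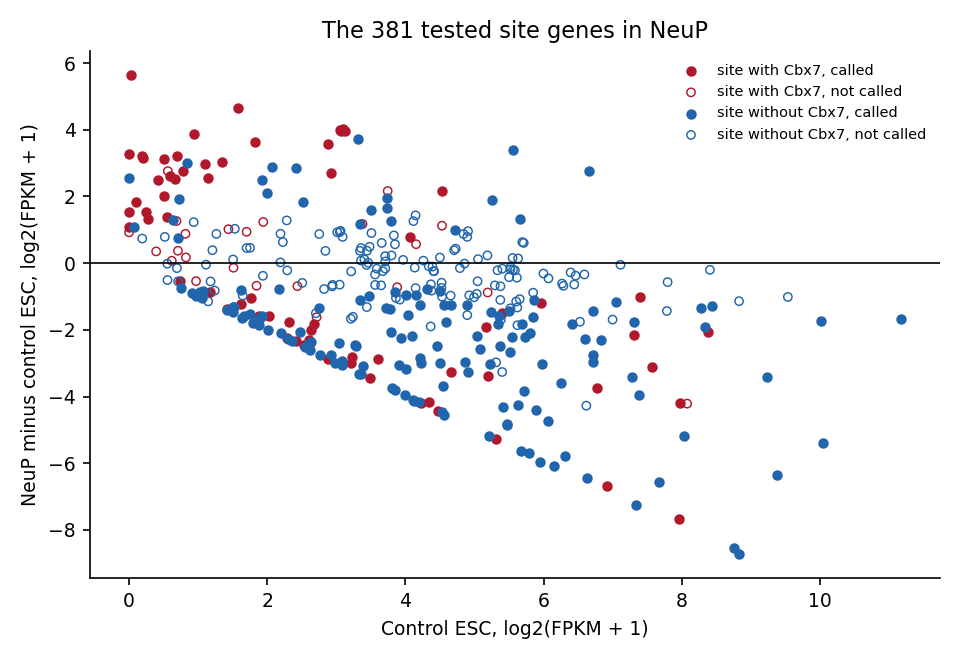
Difference between NeuP and control ESC for the 381 tested site genes, as log2(FPKM + 1), against the level in control ESC, with red for sites with Cbx7 and blue for sites without, filled where limma's adjusted p was under 0.05. Called genes above 0 number 54 and are mostly low in control ESC, and the 168 below 0 reach down to the diagonal edge on which a gene is listed at 0 in NeuP, with many well above that edge.

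The site genes that fell furthest include markers of pluripotency. Fabp3, a fatty acid binding protein, had 0.098 and 0.065 FPKM in NeuP, against 454 FPKM in control ESC, a difference of -8.72 log2 (SE 0.19, limma adjusted p = 0.00238). Dppa5a, an RNA-binding protein of ESC, had 0.147 and 0.195 FPKM against 432 FPKM. Fbxo15, an ESC-specific F-box protein regulated by Oct4, had 0.277 and 0.183 FPKM against 248 FPKM. The NeuP libraries were close to 0 for all 3 genes. Chchd10, a mitochondrial protein, Slc38a4, an amino acid transporter, Mdk, the growth factor midkine, Icam1, an adhesion receptor, Slc2a3, the glucose transporter GLUT3, and Fgf4, an FGF ligand, followed with differences between -7.25 and -6.09 log2. Cyba completed the 10 and was listed at 0 in both NeuP libraries. Of the 10, all but Slc38a4 and Fbxo15 were at sites without Cbx7, as were 289 of the 381 site genes tested.

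The site genes with the largest rises lay mostly at sites with Cbx7, as did 32 of the 54 called higher. Tril, a co-receptor for Toll-like receptors, had 83.6 and 29.8 FPKM in NeuP and 0.015 FPKM in control ESC, a difference of 5.65 log2 (SE 0.67, limma adjusted p = 0.00887). Wls had 67.0 and 83.3 FPKM in NeuP, against 1.99 FPKM in control ESC. S1pr1, a receptor for sphingosine 1-phosphate, had 51.7 and 13.9 FPKM against 0.925 FPKM. Each lay at a site with Cbx7, and both NeuP libraries stood above the control. Lrig1, a brake on growth factor receptors and a stem cell marker, had 152 and 111 FPKM against 8.91 FPKM, at a site without Cbx7. Dusp6, a phosphatase that dampens ERK signalling, had 27.2 and 67.3 FPKM against 2.53 FPKM.

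Among the 10 leading risers 5 are gamma protocadherins, cell surface proteins by which neurons recognise each other. The 5 genes (Pcdhga4, Pcdhga11, Pcdhgb1, Pcdhgb6 and Pcdhgb7) share their last exons, and their nearly equal values cannot be told apart as separate genes. They lay at 3 sites, all with Cbx7, and their differences ran from 3.95 to 4.01 log2. Pcdhgb1 had 187 and 101 FPKM in NeuP, 12.4 and 13.0 FPKM in hairpins #2 and #4, and 7.57 FPKM in control ESC. Without these 5 genes, 49 site genes rose.

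Of the listed families, pluripotency genes were most often at the sites. Of 26 such genes in the table, 6 (23.1%) were site genes, against 1.89% of the table. Of the 26 genes 25 passed the filter, against 13750 of the 24016 in the table. The family's share was not counted at Nup153 promoters without Ring1B or at Ring1B promoters without Nup153. It is thus not shown to be particular to the sites. All 6 site genes fell in NeuP. In the whole list 24 of the 25 tested fell, and Tet2, named after its value was seen, rose. Dppa3, a maternal factor that guards DNA methylation, had 0.038 and 0 FPKM in NeuP and 32.7 and 34.6 FPKM in hairpins #2 and #4, against 50.0 FPKM in control ESC. Sall4, a zinc finger factor of ESC, had 0.012 and 0.016 FPKM in NeuP and 28.9 and 30.3 FPKM in the hairpins, against 21.1 FPKM in control ESC. Tdgf1 (Cripto), the co-receptor of Nodal, had 0.13 and 0.021 FPKM in NeuP and 48.0 and 104 FPKM in the hairpins, on either side of the 54.3 FPKM in control ESC. Tbx3, a T-box factor of ESC, had 0.007 and 0.071 FPKM in NeuP against 13.0 FPKM. These 4 of the 6 lay at sites in the Oct4 DamID list, and Dppa5a and Fgf4 did not. Of the 6, Sall4 alone had Cbx7, which 92 of the 381 tested site genes had at their site.

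Signalling genes at the sites ran both ways. Of the FGF pathway, 4 of 38 genes (10.5%) were site genes (Fgf4, Fgf5, Dusp6 and Etv5), against 1.89% of the table. Of the 3 tested 1 rose and 1 fell, and of the 25 tested in the whole list 8 rose and 4 fell. Etv5, an ETS factor downstream of FGF, had 29.1 and 75 FPKM in NeuP and 16.7 FPKM in control ESC, and did not pass. Of the BMP and TGF-beta pathway, 4 of 67 genes (5.97%) were site genes (Bmp4, Gdf15, Inha and Nodal), and 3 fell. In that whole list 14 of the 46 tested rose and 13 fell. Bmp4, a ligand that patterns ectoderm and mesoderm, had 0.36 and 0.352 FPKM in NeuP and 2.49 and 1.94 FPKM in the hairpins, against 3.07 FPKM in control ESC. Nodal was listed at 0 in both NeuP libraries. Of the listed Wnt genes, the ligand Wnt3 and the antagonist Sfrp4 were site genes and both fell. In the whole Wnt list 13 of the 37 tested rose and 10 fell.

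The listed homeobox genes at the sites all carried Cbx7. Of 146 genes in a list of homeobox factors outside the HOX clusters, 6 (4.11%) were site genes, against 1.89% of the table. All 6 were in the Ring1B list of hairpin #2 and 4 in that of hairpin #4. The list was built from gene names and misses some genes with a homeobox, such as Mkx and Zhx2 at sites with Cbx7, both named after their values were seen. Of the 4 tested 2 rose and 2 fell, and of the 54 tested in the whole list 22 rose and 18 fell. En2, a factor of the midbrain and hindbrain, rose to 8.33 and 8.15 FPKM in NeuP and had 0.672 and 0.611 FPKM in hairpins #2 and #4, against 0.591 FPKM in control ESC. Tshz1, a zinc finger homeobox factor, also rose, at 14.8 and 8.94 FPKM against 0.427 FPKM. Vax2, an eye patterning factor, fell to 0.304 and 0.168 FPKM in NeuP, against 5.07 FPKM in control ESC. Rax and Six3, both of the early eye field, passed no filter. Among axon guidance genes, Nrp1, a receptor for semaphorins and VEGF, rose to 9.40 and 9.43 FPKM in NeuP against 0.134 FPKM, while the ligands Sema4b and Slit2 were not called.

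The HOX clusters gave 2 sites (Hoxc11 and Hoxd12) of 39 genes, and neither gene passed the filter. Foxa1, the forkhead factor of endoderm, likewise lay at a site with Cbx7 and under the filter, at 0.635 and 0.345 FPKM in the hairpins and 0.446 FPKM in control ESC. The bHLH genes Id1, Id4, Hes1 and Bhlhe40, effectors of BMP, Notch and other signals, were site genes, and Id1 rose to 37.7 and 29.0 FPKM in NeuP against 10.3 FPKM in control ESC. Id4, an inhibitor of bHLH factors in neural precursors, had 21.7 and 3.41 FPKM in NeuP against 0.476 FPKM, and was not called. No Pax, Sox, Gata or Hedgehog gene of the lists lay at a site. Of 39 nuclear receptor genes in the list, Nr5a2, which can drive Pou5f1, and Rara, a retinoic acid receptor, were site genes and both fell. Of the 24 tested in the whole list 8 rose and 6 fell. Pgr, the progesterone receptor, is not in that list, but it too was a site gene, under the filter, and is named after its values were seen. A single PRC1 subunit gene, Phc1, and no PRC2 gene was a site gene. Phc1, a polyhomeotic protein of canonical PRC1, had 119 and 105 FPKM in the hairpins, 23.1 and 23.1 FPKM in NeuP, where it fell, and 84.0 FPKM in control ESC.

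The remaining lists gave few site genes. Of 237 ion channel and synapse genes 3 (1.27%) were site genes, against 1.89% of the table. Of these, only Gad1, which makes the transmitter GABA, was tested, and it was not called. Cdkn1a, the cell cycle inhibitor p21, had 25.7 and 57.6 FPKM in NeuP, 158 and 122 FPKM in the hairpins and 127 FPKM in control ESC, and was not called. Notch4, a Notch receptor, fell to 0.147 and 0.157 FPKM in NeuP against 0.666 FPKM. Osr2, a zinc finger factor of palate and limb, rose to 2.63 and 1.5 FPKM in NeuP against 0.208 FPKM, while Prdm12, a factor of sensory neurons, was under the filter. Rpl36, the 1 of 81 ribosomal protein genes at a site, fell in NeuP, as did 48 of the 80 tested in that list.

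The broadest Ring1B overlaps were at Tfap2a (2501 bp), Rbpj (2150 bp), Phc1 (2098 bp), Neat1 (2009 bp) and Usp48 (1998 bp). Tfap2a, a factor of neural crest and epidermis, lay at a site with Cbx7 and rose to 3.91 and 5.73 FPKM in NeuP, against 0.414 FPKM in control ESC. Rbpj, the DNA-binding effector of Notch, fell to 6.22 and 5.87 FPKM against 23.0 FPKM, and Usp48, a deubiquitinase, to 20.0 and 24.2 FPKM against 112 FPKM. All 5 sites were in both hairpin Ring1B lists.

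At 20 sites (5.10%) Ring1B was listed in hairpin #2, hairpin #4 and NeuP as well as control ESC, with Cbx7. Of the genes there, Nes, the neural filament nestin, rose to 60.3 and 124 FPKM in NeuP and had 8.45 and 8.95 FPKM in hairpins #2 and #4, against 6.34 FPKM in control ESC. Ncam1, a neural adhesion molecule, rose to 64.5 and 36.1 FPKM against 6.59 FPKM. Upp1, uridine phosphorylase, fell to 3.77 and 12.9 FPKM against 108 FPKM, and Arid3b, an AT-rich DNA-binding factor, to 0.049 and 0.218 FPKM against 19.3 FPKM. Genes at these sites thus ran both ways in NeuP. Mkx, a homeobox factor of tendon, had 1.89 and 1.33 FPKM in NeuP and 1.85 FPKM in control ESC.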

How the data were processed

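Peak lists and FPKM were used as deposited. Per the submitters' processing notes the tools were CASAVA 1.8.2, Bowtie2 2.1.0, STAR 2.2.0c, HOMER 4.6 and edgeR (no version given), with the mm9 build. Per the file headers, Ring1B and Cbx7 peaks were called in HOMER's histone style and Oct4 peaks in the factor style, at 4-fold or more over an IgG library of ESC, 1 library per list. How the DamID replicates and the GFP control were combined is not given in the sources. FPKM values were made by the authors per kb of transcript and by library depth. Other deposited values are positions and lengths in bp. Multiplied by length, low FPKM came out whole within 0.1 read for 100% of values tested, which gave the depths.

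Sites were found with Python 3.11.15 code using pandas, and RNA was fitted with limma 3.58.1 in R 4.3.3 (trend, pseudocount 1, at least 1 FPKM in at least 1 library, 3 groups in 1 fit, two-sided, Benjamini-Hochberg over 13750 genes, called at 0.05). The fit had 2 residual degrees of freedom plus 1.74 from moderation and was tested on simulated data. The members, gene families and markers were chosen with earlier results of these data known. Genes were named by these rules: the 10 largest and 10 lowest differences shared by both hairpins, the 10 largest rises and falls called in NeuP, up to 4 per family by mean FPKM, the 10 most abundant at sites in neither hairpin list, the 5 broadest overlaps and the 5 either side of the 2 kb limit; genes of the 20 sites in all Ring1B lists with Cbx7, and microRNA genes were picked after their values were seen. One homeobox gene that these rules name is not reported here. Input and GFP libraries have no list of their own here and were not analysed.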

Additional observations from a re-analysis of the deposited data

How the results depend on the processing

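No paired analysis was possible because the control has a single RNA library, so no replicate number pairs the groups. For the knockdown, 0 site genes were called higher and 0 lower under each alternative run except without a filter on low values, where 1 (Agtr1b) was higher and 2 (Mir191 and Mag) lower of 455 tested, named after their values were seen and all under 1 FPKM in each library. The lowest and highest counts on leaving out a library were 0 and 0. The counts by fold, with both hairpins at least 2-fold or 1.5-fold above control ESC, were 3 and 22 on FPKM + 1, and 17 and 49 on FPKM with nothing added, a scale chosen after seeing the data. The count at least 2-fold below was 0 and became 1 on that scale. For NeuP, the count of higher site genes was 54 and ran from 11 (either hairpin) and 90 to 102 (either NeuP library) on leaving out a library, and was 5 with the control and NeuP libraries alone. The count of lower site genes was 168, ran from 86 to 234 on leaving out a library, and was 86 with those libraries alone. Other pseudocounts, quantile normalization, voom, other TSS limits, the nearest gene alone, a stricter overlap and leaving out chromosome 8 kept both NeuP counts within 1.5 times. Of the shares of sites in other lists, that of Oct4 DamID went to 46.9% with a TSS within 5 kb and 34.6% with the site's centre within 2 kb, and the other 6 lists stayed within their Wilson intervals under each alternative. Among named genes, Neat1 in NeuP was 1.49 log2 without NeuP replicate 2 and -1.78 without NeuP replicate 1, and Hes1 was 0.26 and -0.45 log2, so that both turned round, and the cause was not tested. Apoe was 1.01 and -3.03 log2, Slit2 -0.24 and 0.38 log2, and Bhlhe40 -0.23 and 0.20 log2 in the same order. Including these, 8 NeuP values (5 genes) and 17 knockdown values (16 genes) turned sign while passing the threshold neither as reported nor in that alternative. Of the other NeuP values of named genes under these alternatives, 678 kept their side of the threshold, 115 lost it and 25 gained it, and all 820 knockdown values kept theirs. Single ChIP libraries of unequal depth and lists without heights limit what the shares can show.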
